A study of Mus musculus with 27 samples.

Results

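Krt75+ Foxq1- cells were taken from single cell RNA-seq of wild-type mouse back skin in anagen VI, the full growth phase of the hair cycle, at postnatal day 32, with 1 library from each of 2 mice. A member was a kept cell with 5 or more UMIs (counted RNA molecules) of Krt75, the keratin that marks the companion layer, no UMI of Foxq1, a factor of the hair medulla, under 0.3% of UMIs from the inner root sheath keratins Krt25, Krt27, Krt28, Krt71 and Krt73, and under 0.1% from the epidermal keratins Krt1 and Krt10. This held for 85 of 14458 kept cells in mouse 1, which is 0.588% with an exact 95% binomial interval of 0.470% to 0.726%. It held for 60 of 13915 kept cells in mouse 2, which is 0.431% with an interval of 0.329% to 0.555%, so that 145 of 28373 cells were described in all. The members were chosen by their measured Krt75, Foxq1 and keratin UMIs, so the levels of these genes are given as a description, and intervals here cover counting error only.

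The companion layer is a single sheet of flat cells between the outer root sheath (ORS), which houses the hair follicle stem cells, and the inner root sheath (IRS), the channel in which the hair shaft grows. It is bound tightly to the IRS by desmosomes and moves upward with it along the ORS, which stays in place. Keratins 75, 6 and 17 are its usual markers, and the medulla, the core of the hair shaft, makes Krt75 too.

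The study also cultured hair follicle stem cells (HFSCs). Bulk RNA-seq came from HFSCs of telogen (resting phase) mice at postnatal day 55, wild-type or labelled Rxra cKO, a conditional knockout of a retinoid receptor for which the methods list a Sox9-CreER; Rxra-fl/fl; Rosa26-YFP cross. They were grown in FBS (serum) or in atRA+PKCi, all-trans retinoic acid with a protein kinase C inhibitor, with 2 mice per genotype and medium. The study's methods describe the atRA+PKCi medium as serum-free with B-27 supplement, so the media differed in serum and supplement too. Single cell matrices of wild-type HFSC cultures held mixed conditions from 2 mice at postnatal day 32.

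The skin cells were sorted, by the study's methods, for absence of CD45, CD31, CD140a and CD117. Nevertheless 6493 of 14458 kept cells in mouse 1 and 6801 of 13915 in mouse 2 had 1% or more of their UMIs from the fibroblast collagens Col1a1, Col1a2 and Col3a1 (called collagen-rich cells below). The Krt75+ Foxq1- cells had a median of 13800 UMIs and 4130 genes per cell in mouse 1 and 11817 UMIs and 3782.5 genes in mouse 2. The median over all kept cells was lower, at 8869 and 10594 UMIs. In mouse 2 the Krt75+ Foxq1+ and IRS keratin gates (defined below) were deeper than the members, at 13473 and 12474 UMIs. The members' sums held 1207261 and 814516 UMIs. The libraries shared 46 kept barcodes, none of them a member's.

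Of the label's 3 markers, Krt75 and Krt17 were abundant and Krt6a was nearly absent. With the members' summed UMIs scaled to a total of 1000000 (CPM), Krt75 stood at 1673 in mouse 1 and 1439 in mouse 2, and Krt17, a keratin of follicle sheaths and of stressed skin, at 5011 and 2554. Krt6a, the label's other marker, stood at 14.1 and 57.7 CPM, and 5 of 85 and 5 of 60 members held a UMI of it. One member in mouse 2 held 43 of that mouse's 47 Krt6a UMIs, and without it the level was 4.99 CPM. That cell also carried 168 UMIs of Krt14 and 32 of Barx2, both ORS genes, against 7 of Krt75. The gate itself chose the cells by Krt75, and their summed Krt17 was lower than in ORS cells (compared below). These 3 markers therefore do not settle the name companion layer, and the cells are called by their gate.

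Krt6a was not missing from the libraries. In ORS cells (the basal ORS gate, with 1% or more of UMIs from Krt5 and Krt14, a UMI of Sox9, under 2 of Krt75, none of Foxq1 or Ly6a and the same limits on IRS and epidermal keratins), it stood at 568 and 634 CPM, with a UMI in 49.4% and 51.2% of cells. This gate took 83 and 41 cells, and their median depth of 6230 and 8392 UMIs was below that of the Krt75+ Foxq1- cells. Krt75, Krt6a and Krt71 lie within one stretch of chromosome 15 in GRCm38 (101563345 to 101573904, 101689910 to 101694307 and 101733949 to 101743109, all on the minus strand), and Krt17 lies on chromosome 11 at 100256217 to 100261029.

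Most cells with 5 or more Krt75 UMIs were of another kind. There were 349 of them in mouse 1 and 271 in mouse 2, and 238 and 190 held Foxq1, while 29 and 22 were over the limit on IRS keratins and none was over that on Krt1 and Krt10. The Krt75+ Foxq1+ gate, with all other limits kept, took 235 and 189 cells. The IRS keratin gate, with 0.3% or more of UMIs from the IRS keratins, under 5 of Krt75 and none of Foxq1, took 855 and 519.

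Keratins set the gates apart. Krt75 stood at 773 and 659 CPM in the Krt75+ Foxq1+ gate, and at 28.3 and 27.0 in the IRS keratin gate, levels that the gates' limits set. Krt71, an IRS keratin, stood at 948 and 690 CPM in the Krt75+ Foxq1- cells, where 74 of 85 and 47 of 60 cells held a UMI, against 36.5 and 35.9 in the basal ORS gate and 4340 and 3926 in the IRS keratin gate. The limit on IRS keratins bounds this value from above but does not raise it. Krt5 and Krt14, the basal pair that defined the ORS gate, stood at 693 and 422 CPM and at 169 and 276 CPM in the Krt75+ Foxq1- cells.

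**Figure D1:**
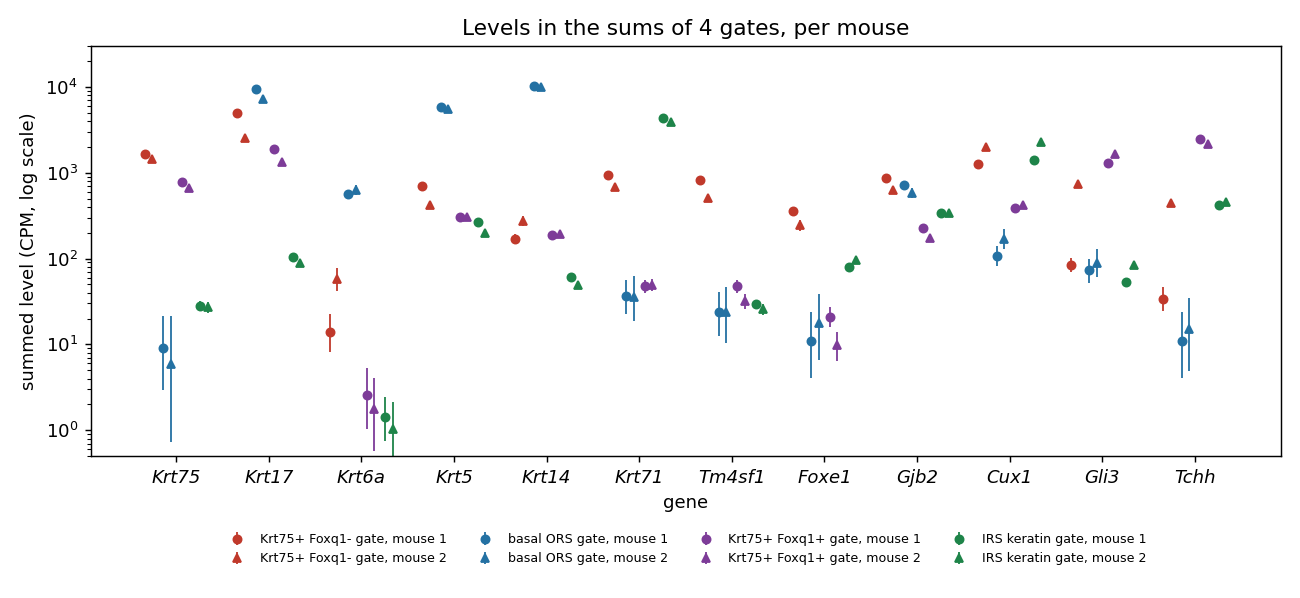
Summed level in CPM on a log axis for each named gene, with 1 point per gate and mouse and its exact 95% Poisson interval as a bar, in the Krt75+ Foxq1-, basal ORS, Krt75+ Foxq1+ and IRS keratin gates. Krt17 lay at 5011 and 2554 CPM in the Krt75+ Foxq1- cells and at 104 and 89.3 in the IRS keratin gate, and Krt6a at 14.1 and 57.7 against 568 and 634 in the basal ORS gate.

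As a background for shares of cells with a UMI, collagen-rich cells that no epithelial gate took were used, 6435 in mouse 1 and 6767 in mouse 2, with median depths of 9152 and 11820 UMIs. Krt75 was found in 7.96% and 8.36% of them. After thinning each cell to 3000 UMIs, which left out 2 members in each mouse, the shares were 2.31% and 3.70% in 477 and 459 of those cells drawn at random and 92.8% and 89.7% in the members. Single cells of this background had up to 18 Krt75 UMIs in mouse 1 and 4 in mouse 2, and cells over the gate's Krt75 limit had been taken out where an epithelial gate held them. The gate itself set the members' high Krt75 share, so this contrast is given for scale only. Tm4sf1, which was not used by the gate, had a thinned share of 61.4% (51 of 83 cells, exact 95% interval 50.1% to 71.9%) and 37.9% (22 of 58, 25.5% to 51.6%) in the members. It had 9.85% and 5.88% in the background cells, 5.13% and 8.11% in the basal ORS gate and 6.91% and 5.04% in the IRS keratin gate. Unthinned, 75.3% and 56.7% of the members and 26.2% and 22.7% of the background cells held it.

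The members varied widely among themselves. Krt75 ran from 5 to 206 UMIs per cell in mouse 1, with a median of 10, and from 5 to 298 in mouse 2, with a median of 8.5. Krt17 ran from 0 to 640 UMIs with a median of 14 in mouse 1, and from 0 to 834 with a median of 8 in mouse 2. A single cell of mouse 2 held 25.4% of the members' Krt75 UMIs, 40.1% of Krt17 and 42.1% of Tm4sf1. Without the member with the most Krt75 in each mouse, Krt17 stood at 4600 and 1606 CPM and Tm4sf1 at 718 and 305.

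Cells with more Krt75 carried more of several other genes. Over both mice, 71 members had 5 to 9 Krt75 UMIs, 39 had 10 to 19 and 35 had 20 or more. Across these strata Krt17 stood at 953, 2092 and 11388 CPM, Tm4sf1 at 117, 444 and 1973, Gjb2 (a gap junction protein) at 385, 755 and 1478, and Foxe1, a forkhead factor of follicle and thyroid, at 159, 432 and 483. The plot of members shows this gradient cell by cell.

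**Figure D2:**
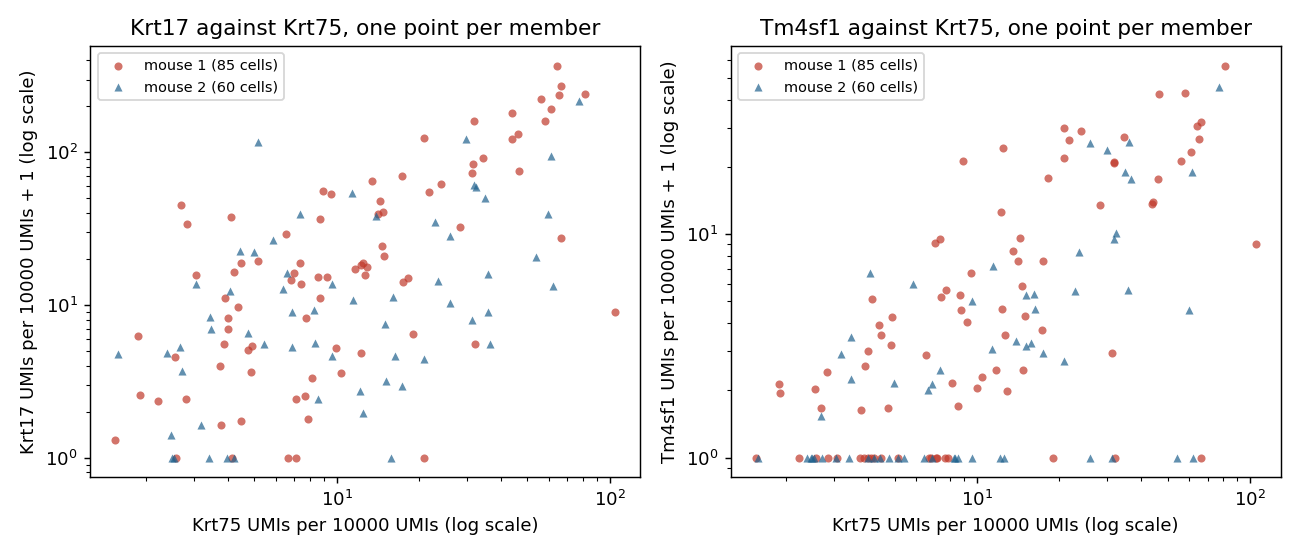
Each point is 1 member, with Krt75 UMIs per 10000 UMIs on the x axis and Krt17 or Tm4sf1 on the y axis with 1 added, both log axes, coloured by mouse. The cells with 20 or more Krt75 UMIs summed to 11388 CPM of Krt17 and those with 5 to 9 to 953.

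Other genes went the opposite way or in no order. The summed S and G2M phase genes stood at 3650, 2945 and 921 CPM across the strata and Gli3, an effector of Hedgehog signaling, at 642, 70.6 and 48.0. Tchh, the trichohyalin of IRS and medulla, stood at 390, 6.23 and 27.7 CPM and Krt14 at 404, 29.1 and 22.1. A few cells and 1 mouse weighed on these values. Of the members' 701 Gli3 UMIs, 599 were in mouse 2, and a single cell held 37.1% of the Tchh UMIs. Single cells of the lowest stratum held 168 Krt14 UMIs in mouse 2 and 103 in mouse 1. Krt71 was highest in the middle stratum, at 648, 1283 and 814 CPM, and so was Cux1, a transcription factor of the IRS and hair progenitors, at 1375, 1916 and 1543.

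With each cell thinned to 3000 UMIs, genes were ranked by the lower of the mice's Spearman correlations with Krt75, over 83 and 58 cells and 1911 genes. The first 5 were Gjb2 (0.534 in mouse 1, 0.486 in mouse 2), Tm4sf1 (0.613, 0.462), Slc39a6 (0.438, 0.499), Gm12446 (0.417, 0.391) and Slco3a1 (0.381, 0.492). Sytl2, Nhs, Mfsd2a, the desmosome linker Dsp and the tropomyosin Tpm1 followed, and Krt17 gave 0.585 and 0.277. At the other end were chromatin and proliferation genes, with Hmgb2 at -0.492 and -0.44 and the histone Hist1h1b at -0.417 and -0.553. Cells of 1 mouse share a library, the gate fixed the lowest Krt75 value, and these coefficients are descriptions without a test.

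Just inside the Krt75 limit, 12 and 7 cells with 5 UMIs held Krt17 at 523 and 549 CPM and Tm4sf1 at 35.2 and 95.5. Just outside it, 25 and 27 cells with 4 UMIs held Krt17 at 657 and 480 CPM and Tm4sf1 at 79.3 and 33.9. The 16 and 14 cells kept out by 1 Foxq1 UMI held Gli3 at 1227 and 1441 CPM, where the members held 84.5 and 735. The 22 and 11 members with 0.2% to 0.3% of IRS keratins held Tm4sf1 at 410 and 295 CPM, and the 14 and 9 cells kept out at 0.3% to 0.4% held it at 670 and 872.

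Part of the gate carried genes abundant in the Krt75+ Foxq1+ gate. Gli3 stood at 1293 and 1658 CPM there and at 54.4 and 83.7 in the IRS keratin gate. Of the Krt75+ Foxq1- cells, 6 of 85 in mouse 1 and 13 of 60 in mouse 2 had 5 or more UMIs of Gli3 or of Tchh. Over all members, Gli3 stood at 84.5 and 735 CPM and Tchh at 34.0 and 449. Without those cells, Lef1, which did not choose them, stood at 86.4 and 66.5 CPM against 113 and 388 over all members, and Krt17 at 5250 and 3203.

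To ask what each member was most like, it was compared by Spearman correlation with the summed profile of each gate in the other mouse, over genes used in no gate (5738 for mouse 1 and 5541 for mouse 2). Only 30 of 85 members (35.3%) in mouse 1 and 21 of 60 (35.0%) in mouse 2 were nearest to the Krt75+ Foxq1- profile. The IRS keratin profile was nearest for 44 and 15, the Krt75+ Foxq1+ profile for 7 and 10, the basal ORS profile for 1 and 10 and the collagen-rich profile for 3 and 4. In the other 4 epithelial gates, with a suprabasal gate of 29 and 26 cells included, 92.1% to 100% of cells were nearest to their own gate. The Krt75+ Foxq1- profile of the other mouse was itself a sum of this mixed set.

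**Figure D3:**
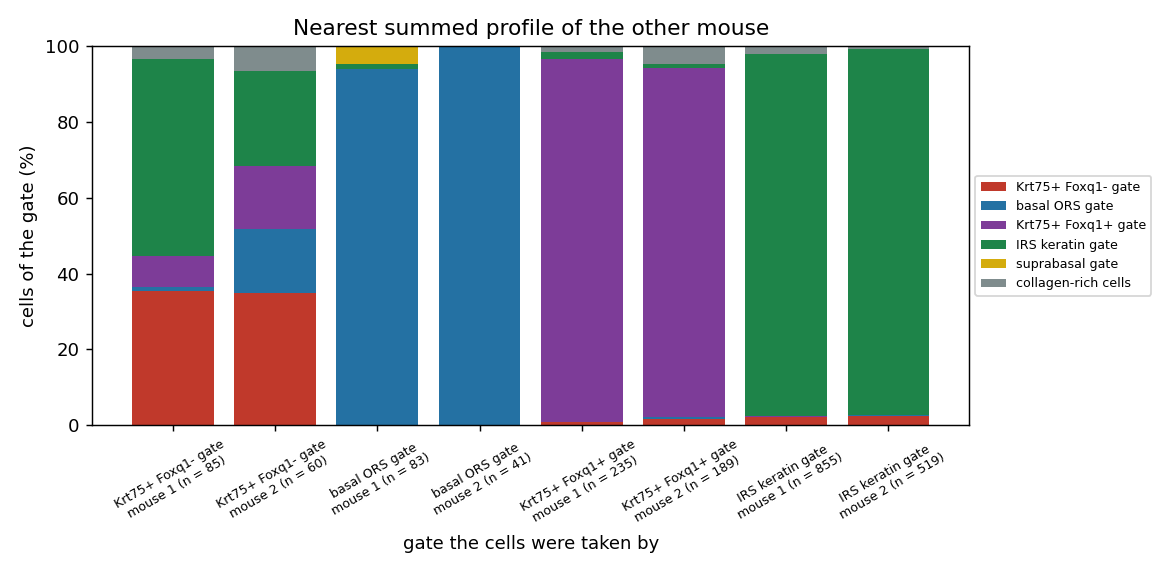
Bars show the percent of cells of each gate and mouse whose nearest profile in the other mouse was that of each gate, stacked to all cells of the gate. Members were nearest to their own gate in 35.3% and 35.0% of cells, and cells of the other gates in 92.1% or more.

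The 51 members nearest to their own profile held Krt75 at 2249 CPM, Krt17 at 5603, Tm4sf1 at 1123 and Gm94 at 265. The 59 nearest to the IRS keratin profile held Krt75 at 1465, Krt17 at 4265 and Tm4sf1 at 659, but in mouse 2 alone they held Krt17 at 522 and Tm4sf1 at 76.8. The 17 nearest to the Krt75+ Foxq1+ profile held no UMI of Tm4sf1, Gm94 or Liph and 2348 CPM of Gli3.

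Collagen RNA and doublet calls also marked a share of the members. Collagens took 1% or more of UMIs in 9 and 4 members, and these held 56.9% and 66.6% of the gate's collagen. All 6 fibroblast markers were detected and together took 0.582% and 0.753% of the members' UMIs, against 0.186% and 0.314% in the basal ORS gate, 0.376% and 0.40% in the IRS keratin gate and 4.52% and 5.61% in collagen-rich cells. Scrublet, a doublet caller, marked 19 of 85 members (22.4%) in mouse 1 and 2 of 60 (3.33%) in mouse 2, against 5.76% and 2.21% of all kept cells. Of the other lists, immune markers took 12 and 14 UMIs, with 4 and 2 of 6 genes at 0, and endothelial markers 1 and 6 UMIs, with 3 and 1 of 4 at 0. Mural markers took 269 and 59 UMIs. What part these cells had in the results below was not tested beyond the values without them.

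Genes outside the gates were compared with edgeR's quasi-likelihood test on UMIs summed per mouse and gate, with 8 sums in 1 fit and mouse as a block. A gene was called at an adjusted p (Benjamini-Hochberg over all genes tested) under 0.01 and a log2 fold change beyond 1 in size. With mouse as a block, a p measures how far the differences between gates varied between these 2 mice, with the spread shared over all gates of the fit. Since the gates were set on RNA of the same cells, the tests describe gated cells.

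Against the basal ORS gate, the summed Krt75+ Foxq1- cells were higher in G2M phase genes and lower in parts of the ORS, hemidesmosome and early response lists. Within the members, summed S and G2M phase genes fell across the Krt75 strata and were lowest in the highest stratum (values above). The G2M difference therefore describes the sum of a mixed gate. Whether it held in the highest Krt75 stratum alone was not tested. Of 11587 genes, 353 (3.05%) were called higher and 574 (4.95%) lower. Of 15 G2M phase genes 14 were higher, with a median log2 difference of 2.87 against 0.02 over all genes, and of 15 S phase genes 5 were higher. Top2a, a topoisomerase of dividing cells, stood at 468 and 374 CPM in the members and at 29.2 and 53.8 in the ORS, with no overlap. Cdk1, the mitotic kinase, stood at 163 and 98.2 CPM against 5.48 and 5.98, a log2 difference of 4.32 ± 0.40 (SE, n = 2 mice, adjusted p = 1.72e-05 in edgeR).

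Cells with 5 or more S or G2M phase UMIs among 3000 made up 44.6% and 39.7% of the members. They made up 1.28% and 8.11% of the basal ORS gate, 17.0% and 17.5% of the Krt75+ Foxq1+ gate and 61.3% and 65.7% of the IRS keratin gate. In both mice the members lay between the Krt75+ Foxq1+ and the IRS keratin gate. These shares are of all thinned members and were not split by Krt75 level.

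Several genes of the ORS were lower. Pthlh, a parathyroid hormone-like signal, stood at 19.1 and 13.5 CPM against 975.2 and 562, a log2 difference of -5.78 ± 0.26 (adjusted p = 8.84e-08 in edgeR). Sostdc1, an inhibitor of BMP and WNT, stood at 9.94 and 6.14 CPM against 374 and 263, and Barx2, a homeobox factor, at 35.6 and 40.5 against 846 and 855. Of 14 tested HFSC and ORS genes, 6 were lower, namely Barx2, Krt15, Tbx1, Tcf7l1, Tcf7l2 and Vdr, with a median of -1.34. In UMIs the retinol-storing enzyme Lrat was at 0 in the members of both mice, where 3 UMIs would be 2.48 and 3.68 CPM, and stood at 43.8 and 80.7 CPM in the ORS.

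Of 11 hemidesmosome and basement membrane genes, 5 were lower (Col17a1, Dst, Itgb4, Lamb3 and Plec). Col17a1, a collagen of hemidesmosomes, stood at 29.8 and 24.5 CPM against 219 and 153. Of 14 desmosome genes Dsg3, Dsp and Pkp1 were lower and Pkp2 higher. For Dsp this describes the sum of a mixed gate, since Dsp rose with Krt75 among the members (Spearman correlation 0.405 and 0.329). Its call was no longer past the threshold in 3 of 16 alternatives. Of 12 AP-1 and early response genes 7 were lower, among them Fos, which stood at 360 and 311 CPM against 1688 and 1070.

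The label marker Krt17 was itself lower in the members' sum than in the ORS, at 5011 and 2554 CPM against 9451 and 7208. The log2 difference was -1.43 ± 0.15 (adjusted p = 4.64e-05 in edgeR), and the call was no longer past the threshold in 2 of 16 alternatives. This describes the mixed gate, since Krt17 rose across the Krt75 strata (values above). In the highest stratum, Krt17 was above both ORS levels when summed over both mice. This did not hold in mouse 2 alone, where the stratum lay below both ORS levels. A single cell there held 834 of the 2080 Krt17 UMIs of that mouse's members. Gjb2, at 860 and 627 CPM, did not pass against the ORS level of 727 and 583, with a difference of -0.06 ± 0.14 (adjusted p = 0.804 in edgeR). Cux1 was higher, at 1254 and 1985 CPM against 108 and 170, and so was Sox5, an SRY-box factor, at 488 and 737 against 76.7 and 123. Fibroblast markers were higher for 4 of 6 (Col1a2, Col3a1, Dcn and Lum), with the shares of UMIs given above. The median collagen share per cell was not higher, at 0.149% and 0.258% in the members against 0.151% and 0.272% in the ORS. The 9 and 4 members with 1% or more collagen held 56.9% and 66.6% of the gate's collagen.

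Against the Krt75+ Foxq1+ gate, the cells differed in genes of several lists, among them junction, Notch, WNT, BMP and hair matrix genes. Of 11591 genes, 494 (4.26%) were called higher and 400 (3.45%) lower. Pou3f1, a POU factor of differentiating epidermis, stood at 531 and 343 CPM against 23.2 and 19.9, a log2 difference of 4.20 ± 0.23 (adjusted p = 2.9e-07 in edgeR). Dsg1a, a desmoglein of upper layers, stood at 158 and 233 CPM against 14.4 and 10.8. Of 14 desmosome genes, 5 were higher (Dsc3, Dsg1a, Dsg1b, Perp and Pkp2) and Dsg2 and Dsg3 were lower.

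Among tight and adherens junction genes, Cdh1, Cldn1, Cldn4 and Ocln were higher. Cdh1, or E-cadherin, stood at 209 and 319 CPM against 39.8 and 36.3. Of 12 Notch pathway genes, the receptors Notch1, Notch2 and Notch3 and the targets Heyl and Nrarp were higher and the ligand Jag2 lower. Notch1 stood at 258 and 320 CPM against 35.4 and 44.7 in the Krt75+ Foxq1+ gate, while the basal ORS and IRS keratin gates stood at 263 and 263 and at 291 and 369, neither of which passed against the members.

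Of 4 tested medulla genes, Hoxc13, Padi3 and Tchh were lower and Foxn1, a forkhead factor of the hair, was higher, and of 2 tested hair shaft keratins 0 were called in edgeR or DESeq2 (1 was higher at an unadjusted p under 0.05 in edgeR). Krtap15, a keratin-associated protein of the shaft, stood at 4.14 and 1.23 CPM against 248 and 206, and Krtap8-1 at 18.2 and 11.05 against 296 and 346. Aldh1a3, an enzyme that makes retinoic acid, stood at 57.1 and 101 CPM against 1088 and 1314, a log2 difference of -4.11 ± 0.20 (adjusted p = 1.63e-07 in edgeR). Among retinoid genes, Aldh1a3 and Stra6 were lower and Crabp2 and Fabp5 higher.

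Of 8 hair matrix and cortex factors, 5 were lower (Dlx3, Hoxc13, Lef1, Msx1 and Msx2) and Cux1 was higher. Lef1, a mediator of WNT, stood at 113 and 388 CPM against 658 and 864. In the BMP list of 16, Bambi, Bmp2, Id1, Id3, Smad6 and Smad7 were lower and Bmp6 and Id4 higher. In the WNT list of 27, Axin2, Lef1, Tcf7, Wnt10a, Wnt3, Wnt4 and Wnt6 were lower, and Fzd1, Fzd7, Lgr4, Lgr5, Sfrp1 and Wnt11 higher.

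Against the IRS keratin gate, few genes were lower and those that were higher included sheath keratins, actin-binding and S100 genes. Of 11591 genes, 474 (4.09%) were called higher and 118 (1.02%) lower. Krt17 stood at 5011 and 2554 CPM against 104 and 89.3, a log2 difference of 5.15 ± 0.17 (adjusted p = 1.2e-08 in edgeR). Of 19 cytoskeleton and actin genes, 9 were higher, with a median of 1.00 against -0.03 over all genes. Among the 9 were Acta2, Tagln, Myl9 and Cnn2, contractile genes of smooth muscle, and 2 of 4 mural markers (Acta2 and Tagln) were higher too, with a median of 1.21. Acta2 stood at 162 and 30.7 CPM against 29.3 and 19.5, and a single cell held 123 of its 195 UMIs in the members of mouse 1. Tagln stood at 55.5 and 36.8 CPM against 15.4 and 14.2, and a single cell held 26 of its 30 UMIs in mouse 2. Tpm1 stood at 664 and 663 CPM against 144 and 141 and the heavy chain of nonmuscle myosin Myh9 at 252 and 443 against 124 and 143.

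S100 genes, small calcium-binding proteins, were higher for 6 of 10, and S100a6 stood at 2211 and 2009 CPM against 278 and 241. S100a6 stood at 2192 and 2265 CPM in collagen-rich cells too. Slit3, a guidance ligand, stood at 730 and 928 CPM against 111 and 175, and at 739 and 1075 in collagen-rich cells. Hivep2, a zinc finger factor, stood at 118 and 155 against 22.3 and 24.6, and at 160 and 194 in collagen-rich cells.

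Among genes lower than in the IRS keratin gate were Cdh6, a cadherin, at 44.7 and 31.9 CPM against 525 and 549, and Gata3, the IRS transcription factor, at 122 and 158 against 436 and 479. The log2 difference was -3.86 ± 0.18 for Cdh6 (adjusted p = 1.35e-07 in edgeR) and -1.80 ± 0.14 for Gata3 (adjusted p = 8.25e-06 in edgeR). Cux1, at 1416 and 2267 CPM in the IRS keratin gate, did not pass, with a difference of -0.27 ± 0.14 (adjusted p = 0.226 in edgeR). Of 15 S phase and 15 G2M phase genes, 0 were called in edgeR or in DESeq2, with medians of -0.37 and -0.77. At an unadjusted p under 0.05 in edgeR, all 15 G2M phase genes and 5 S phase genes were lower and 0 higher.

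Genes higher in the Krt75+ Foxq1- cells than in all 3 other gates numbered 34, or 0.293% of 11587 tested, and 13 of them reached 100 CPM in both mice. The 3 comparisons share the members' sums, so this overlap is a description. By the smallest of their 3 log2 differences the 13 were Gm94 (4.31), Liph (4.28), Tm4sf1 (3.91), Mfsd2a (1.99), Cyth1 (1.86), Foxe1 (1.68), Ly6d (1.43), Gm12446 (1.23), Fzd5 (1.18), Ly6c1 (1.10), Fhod3 (1.05), Arl15 (1.05) and Atp13a3 (1.03).

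Tm4sf1, a tetraspanin-like membrane protein, lies on chromosome 3 (57285611 to 57301988, GRCm38, minus strand). It stood at 821 and 502 CPM in the members, 23.7 and 23.9 in the basal ORS gate, 47.6 and 31.7 in the Krt75+ Foxq1+ gate and 29.6 and 25.7 in the IRS keratin gate. Collagen-rich cells, at 41.04 and 30.0, and suprabasal cells, at 0 in both mice, did not reach it either.

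Liph, a lipase that makes lysophosphatidic acid (chromosome 16, 21953817 to 21995663, minus strand), stood at 107 and 118 CPM and at 0 to 9.25 in the other gates and in suprabasal cells. Foxe1 (chromosome 4, 46343609 to 46346412, plus strand) stood at 357 and 243 CPM, against 79.4 and 95.9 in the IRS keratin gate and 21.0 or less elsewhere among these gates. Wnt11, a WNT ligand under the 100 CPM limit in mouse 2, stood at 113 and 79.8 CPM and at 2.99 to 8.41 in the 3 compared gates.

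Some of these genes were as high or higher in cells outside the comparisons. Gm94 stood at 187 and 107 CPM in the members, on 1 UMI in each mouse in the basal ORS gate, and at 391.6 and 327 CPM in the suprabasal gate. Ly6d, a GPI-anchored surface protein, stood at 1032 and 448 CPM in the members and at 3607 and 2918 in the suprabasal gate. Ly6c1 stood at 108 and 165 CPM in the members and at 822 and 772 in collagen-rich cells.

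**Figure D4:**
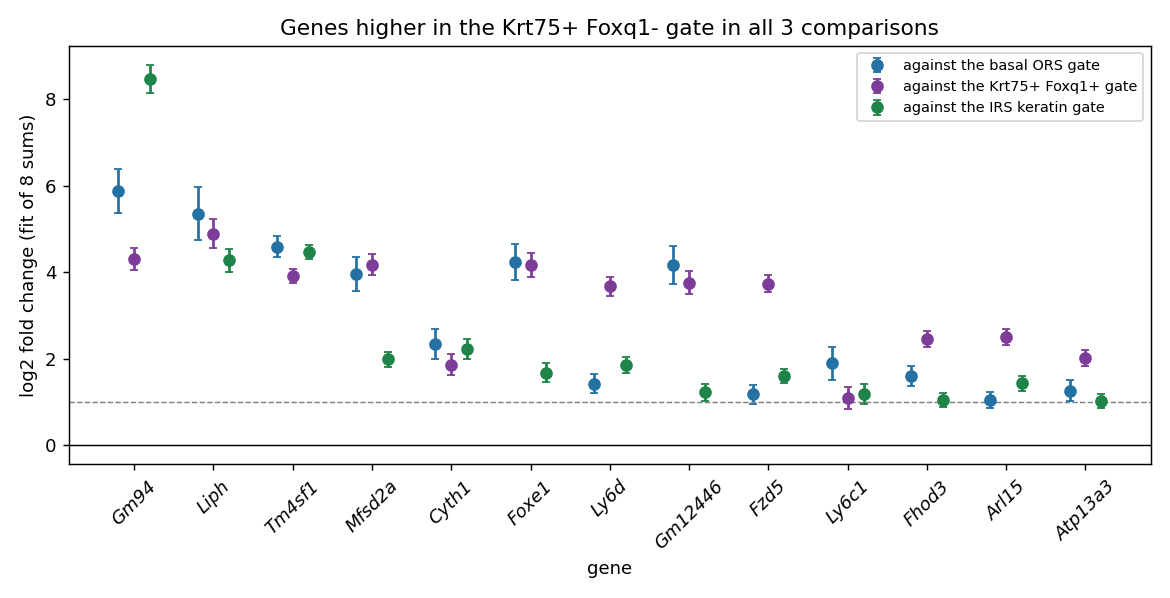
Log2 fold change with its SE for the 13 genes at 100 CPM or more in both mice that were called higher in the Krt75+ Foxq1- cells against the basal ORS, Krt75+ Foxq1+ and IRS keratin gates. The dashed line marks a log2 difference of 1, and the smallest values run from 4.31 for Gm94 to 1.03 for Atp13a3.

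Without cells of 1% or more collagen, 29 of the 34 remained, and those lost were Cyp7b1, Has1, Ly6c1, Ntrk2 and Sfrp2. Without Scrublet's doublets 27 of the 34 remained, and without the member with the most Krt75 in each mouse 29. With Krt75 at 10 or more UMIs there were 102 such genes, 32 of the 34 among them, and with cells thinned to 3000 UMIs 27, of which 18 were among the 34. Without the replicate block of mouse 14 remained, among them Gm94, Liph, Tm4sf1, Wnt11, Foxe1, Mfsd2a and Cyth1. The genes lower in all 3 comparisons were 2, the hemoglobins Hba-a1 and Hbb-bs, which a red blood cell supplies. Hba-a1 stood at 49.7 and 22.1 CPM in the members and at 119 to 1585 in the other gates.

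In HFSC cultures, samples that the gate did not use, Krt75 and most of the tested members of these 34 genes were lower in the atRA+PKCi medium than in FBS. First, Rxra totals were 97.2 and 95.7 CPM in the libraries labelled Rxra cKO in FBS and 148 and 145 in atRA+PKCi, against 149 and 122 and 147 and 143 in wild-type, and a gene total does not check a deletion of exons. Library totals ran from 25150265 to 35879777 estimated counts. In wild-type cultures 4350 of 15965 genes (27.2%) were higher in atRA+PKCi and 4249 (26.6%) lower at an adjusted p under 0.05 (edgeR).

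Of the 34 genes, 23 were tested, 3 were higher and 16 lower, with a median log2 difference of -1.05 against 0.03 over all genes. The 34 were named from other samples. In bulk RNA, fewer cells of a kind and less RNA per cell cannot be told apart. Nor can atRA, the inhibitor and the change from serum to B-27 be told apart in this comparison.

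Krt75 was at the low end of detection, at 3.98 and 3.98 CPM in wild-type FBS and 0.225 and 0.063 in atRA+PKCi, a log2 difference of -4.75 ± 0.54 (adjusted p = 0.000105 in edgeR). Krt6a, by contrast with the Krt75+ Foxq1- cells of the skin, was among the abundant genes, at 13489 and 13391 CPM in FBS and 1966 and 1930 in atRA+PKCi. Krt17 stood at 78.1 and 95.2 and at 48.3 and 57.2 CPM. Tm4sf1 was 1 of the 3 that were higher, at 43.3 and 49.6 CPM in FBS and 72.9 and 70.6 in atRA+PKCi, a log2 difference of 0.63 ± 0.10 (adjusted p = 0.000917 in edgeR). Gm94 stood at 220 and 241 CPM and at 0.77 and 0.824, and Ly6d at 956 and 1184 and at 36.7 and 34.3.

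The medium effect differed with genotype for 2117 genes (13.3%) in the higher and 1807 (11.3%) in the lower direction, and for 7 and 2 of the 23. Krt75 in the libraries labelled Rxra cKO stood at 1.403 and 2.69 CPM in FBS and 0.157 and 0.298 in atRA+PKCi, and its interaction of 1.55 ± 0.80 on the log2 scale did not pass (adjusted p = 0.201 in edgeR). Krt17 stood at 1731 and 1983 CPM in FBS and 1500 and 1460 in atRA+PKCi in these libraries, above both wild-type media, with an interaction of 0.39 ± 0.17 that did not pass either (adjusted p = 0.14 in edgeR).

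**Figure D5:**
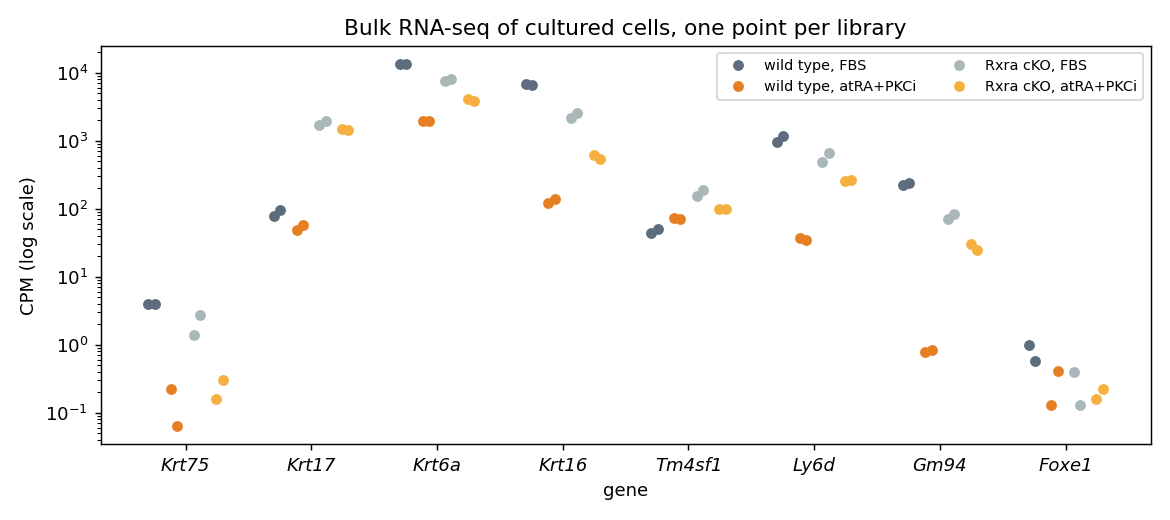
CPM on a log axis, with 1 point per bulk library of cultured HFSCs, for wild-type and Rxra cKO in FBS and atRA+PKCi (n = 2 each, no error bars). Krt75 lies at 3.98 CPM or less in all libraries, and Krt6a between 1930 and 13489.

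The single cell cultures held no cell of the gate. Of 262 kept cells in mouse 1 and 94 in mouse 2, none had 5 Krt75 UMIs, which allows a share of up to 1.15% and 3.19% (3 cells of the total), and 1 cell in each had any. Krt75 stood at 0.499 and 0.349 CPM there and Krt17 at 273 and 233, while Krt6a stood at 825 and 910 and Tm4sf1 at 77.2 and 65.3.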

How the data were processed

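Back skin single cells of 2 mice, 2 single cell culture matrices and 8 bulk culture libraries were used. ATAC-seq, CUT&RUN and hashtag samples were not used here. The skin and culture matrices hold whole UMI counts per gene and called barcode, as deposited, made on mm10 with Cell Ranger 7.0.1 per the submitters' processing notes. The methods name SoupX and DoubletFinder, and the sources used here do not say whether either was run before deposit. For bulk RNA-seq the authors deposited estimated counts per gene from Salmon 1.4.0, rounded here, and a normalized signal scaled between libraries, used only as an alternative. Kept cells had at least 500 genes and 1000 UMIs, with mitochondrial UMIs under 10%. No doublets were removed in the main analysis. Members and gene lists were chosen with earlier results of these data known.

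Sums were fitted with edgeR 4.0.16 (TMM, filterByExpr) in R 4.3.3, and bulk counts in 1 fit of 4 group means. On simulated data for the basal ORS comparison (11599 genes), 73 of 100 changes of 1.5 (log2) and 98 of 100 of 3 were recovered with 0 false calls. The simulation changed only the more abundant genes and gave the sums no other difference between gates or mice. These rates therefore need not hold for the real sums. Thinning, Scrublet (scanpy 1.11.5 in Python 3.11.15) and thresholds used fixed seeds. By the tissue label, culture libraries of 1 genotype with the same number name the same mouse, and over 15965 genes their deviations correlated at 0.067 (wild-type) and -0.019 (Rxra cKO). Named genes were those of the gates and lists, the 10 largest changes each way at 100 CPM or more, those higher in all 3 comparisons, and those most like Krt75. Gene positions are from GENCODE M21. Some members of the junction and retinoid lists are not reported here. Alternatives were DESeq2 1.42.0, limma 3.58.1, other filters, thresholds, gates and left-out sums.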

Additional observations from a re-analysis of the deposited data

Results flagged for a closer look

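In the bulk cultures, the genes looked at were Krt75, Krt17, Krt6a, Krt6b, Krt16, Krt5, Krt14 and Krt71, and the 13 higher in all 3 skin comparisons at 100 CPM or more. Of those 13, 11 were tested. The effect of atRA+PKCi against FBS differed between wild-type and the libraries labelled Rxra cKO for 9 of the genes looked at. The measure was the interaction in edgeR's fit at an adjusted p under 0.05 with n = 2 mice per group. Over all genes tested, 13.3% passed in the higher and 11.3% in the lower direction. On the log2 scale, a positive value means that the fall was smaller, or a fall turned into a rise, in Rxra cKO. The interaction was 1.82 for Krt6a, 6.01 for Krt6b, 3.66 for Krt16, 0.84 for Krt5, 1.78 for Krt14, 6.69 for Gm94, 0.77 for Mfsd2a and 3.78 for Ly6d. For Tm4sf1 it was -1.41, with 153 and 186 CPM in FBS and 97.9 and 98.8 in atRA+PKCi in the Rxra cKO libraries, so that it was lower in the latter medium there and higher in wild-type. Krt5 stood at 8958 and 9150 CPM in FBS and 12311 and 12315 in atRA+PKCi in the Rxra cKO libraries and at 12333 and 11951 and at 9262 and 9149 in wild-type. Gm94 stood at 70.6 and 84.2 and at 30.5 and 24.96 in the Rxra cKO libraries, where the wild-type level with atRA+PKCi was 0.77 and 0.824. The interaction for Mfsd2a was past the threshold in the main fit (adjusted p = 0.0262 in edgeR), but not in 7 of 12 other fits, which were limma and leaving out any of 6 of the 8 libraries, with adjusted p up to 0.088. The cause of these differences was not tested.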

How the results depend on the processing

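Calls in the skin kept their direction in every alternative for nearly all named genes, with 648, 784 and 649 gene results on the same side of the threshold and 55, 29 and 82 no longer past it (against the basal ORS, Krt75+ Foxq1+ and IRS keratin gates). The exceptions in direction had Krt75 set at 10 or more UMIs, with log2 differences of -0.43 for Lef1 against the basal ORS gate, -0.85 for Barx2 against the Krt75+ Foxq1+ gate, and -1.08 for Barx2, -0.18 for Gli3 and -0.22 for Hoxc13 against the IRS keratin gate. Gli3 was also at -0.30 against the IRS keratin gate without members of 5 or more Gli3 or Tchh UMIs, and Ly6c1 at -0.21 against the Krt75+ Foxq1+ gate without collagen-rich cells, both chosen after seeing the data. Without the replicate block, calls were 204 higher and 389 lower against the basal ORS, 333 and 217 against the Krt75+ Foxq1+, and 186 and 50 against the IRS keratin gate. In that order, with only 1 UMI required there were 678 higher, 609 lower and 277 lower, and without a fold limit at 0.05, 888 and 1146, 1049 and 1073, and 1077 and 637. Thinned to 3000 UMIs there were 167 higher and 361 lower, 259 lower, and 310 higher. Against the IRS keratin gate, 76 were lower by DESeq2, 282 with Krt75 at 10 or more and 74 with stricter cell filters, and against the Krt75+ Foxq1+ gate 631 were lower without Gli3 or Tchh members. Leaving out 1 sum gave 66 to 499 higher and 224 to 510 lower against the basal ORS gate, 327 to 515 and 210 to 482 against the Krt75+ Foxq1+ gate, and 200 to 435 and 58 to 123 against the IRS keratin gate, where a lone sum is assumed to vary like the others. Counts moved by over 1.5 times without the ORS sum of mouse 1 (66 and 224) or mouse 2 (121 and 352), the Krt75+ Foxq1+ sum of mouse 1 (327 and 210), the Krt75+ Foxq1- sum of mouse 1 (240 lower against the Krt75+ Foxq1+ gate) and the IRS sum of mouse 1 (292 and 72) or mouse 2 (200 and 58). Members numbered 175 and 139 at 3 or more Krt75 UMIs, 45 and 29 at 10 or more, and 101 and 74 with Foxq1 under 2. In cultures, leaving out 1 library gave 3443 to 4215 higher and 3654 to 4316 lower, and 1375 to 2484 and 961 to 1878 for the interaction, moved by over 1.5 times without Rxra cKO atRA+PKCi mouse 1 (961 lower) or mouse 2 (1375 and 1017) or Rxra cKO FBS mouse 1 (1095 lower), while limma on the normalized signal gave 1336 and 975. The replicate block gave 4238 and 4232, and 1984 and 1631, and lost no named call. Requiring under 2 UMIs of other-type markers left no cells in the gates and gave no value. The cause of these shifts was not tested, and depth limits genes near 1 UMI in the basal ORS gate.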
